A study of Mus musculus with 8 samples.

Results

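The effect of a Rictor-null genotype that memory T follicular helper (Tfh) cells and memory T helper 1 (Th1) cells had in common was measured on all 8 arrays of the study. The 4 arrays of Rictor-null cells were compared with the 4 arrays of wild-type (WT) cells, with the cell type as a block, over 11217 genes. Gene expression was read on Affymetrix arrays in polyclonal CD4 T cells sorted from the spleen at day 60 after infection with the Armstrong strain of LCMV, which mice clear as an acute infection. The 4 groups were Rictor-null Tfh, WT Tfh, Rictor-null Th1 and WT Th1 cells, with 2 biological replicates each. The RNA on an array came from a pool of at least 10 mice, so the spread between arrays is a spread between pools and not between animals. Labelled cRNA was made from 100 ng of total RNA. All mice had been infected, and no uninfected or earlier sample was part of the comparison. The sources used here do not give the promoter that drove the deletion, the deleted part of Rictor, the sort gates or the age and sex of the mice.

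mTOR complex 2 is a kinase complex set apart from mTOR complex 1 by its subunit Rictor. It phosphorylates kinases of the AGC family, among them AKT, SGK and protein kinase C, and AKT phosphorylated in this way and by PDK1 keeps FOXO transcription factors out of the nucleus. In T cells FOXO1 is known for maintaining genes of quiescence and lymph node homing. Tfh cells help B cells through IL-21 and CD40 ligand under the factor BCL6, and Th1 cells make interferon gamma under the factor T-bet.

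Array medians lay between 35.7 and 37.7 signal units and array maxima between 16055 and 16327, and the typical SD between replicates was 0.0536 to 0.109 log2 over the 4 groups. Rictor (chromosome 15, 6708349 to 6800401 of GRCm38.p6) gave 563 and 576 on the Rictor-null Tfh arrays, 560.3 and 563 on the WT Tfh arrays, 493 and 474 on the Rictor-null Th1 arrays and 468 and 556 on the WT Th1 arrays, and the groups overlapped in Th1 cells. The block effect on Rictor was -0.03 ± 0.0548 log2 (SE, n = 4 arrays per genotype; limma with Benjamini-Hochberg adjustment, adjusted p = 0.791). The 4 other Rictor probe sets gave 0.03 to 0.10 and did not pass either. Where these probe sets lie relative to the deletion is not given, so they do not check the genotype labels. Markers that define CD4 T cells were present on every array, with sums over 10 probe sets of 24210 to 26932, and Cd4 gave a block effect of -0.02. In bulk samples such as these, fewer cells of a type and less RNA per cell cannot be told apart.

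The promoters of a few shared genes are printed here because the FOXO factors lie downstream of the complex that was targeted. Each run is the 250 bases before the RefSeq start site of GRCm38.p6, read in the direction of the gene. Capitals mark the FOXO core GTAAACA or its reverse complement. Gzma had the largest shared rise and its window holds no such match; Bcl2l11, Elovl6 and Rsad2 rose and Abcb1a fell in both lineages. The 5 genes were chosen after their values were seen, Gzma for its rise and the other 4 because their windows hold the core. Of the 24 leading shared genes, the promoters of 17 were searched, over 250 bases before and 50 after each start. Among these 17, Ifitm1 was the only gene with the core, which began 35 bases after its start. This match therefore lay outside the 250 bases before the start.
Gzma, chr13:113100982-113101231, minus strand: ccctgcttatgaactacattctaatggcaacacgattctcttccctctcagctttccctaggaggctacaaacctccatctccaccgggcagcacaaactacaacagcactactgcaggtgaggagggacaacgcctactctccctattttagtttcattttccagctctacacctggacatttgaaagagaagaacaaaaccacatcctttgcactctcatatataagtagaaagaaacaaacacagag
Bcl2l11, chr2:128125788-128126037, plus strand: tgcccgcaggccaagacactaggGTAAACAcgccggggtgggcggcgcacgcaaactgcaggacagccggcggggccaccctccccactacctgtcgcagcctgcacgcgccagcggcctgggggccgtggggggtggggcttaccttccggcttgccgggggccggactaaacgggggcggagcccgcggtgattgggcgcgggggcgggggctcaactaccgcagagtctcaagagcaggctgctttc
Elovl6, chr3:129532136-129532385, plus strand: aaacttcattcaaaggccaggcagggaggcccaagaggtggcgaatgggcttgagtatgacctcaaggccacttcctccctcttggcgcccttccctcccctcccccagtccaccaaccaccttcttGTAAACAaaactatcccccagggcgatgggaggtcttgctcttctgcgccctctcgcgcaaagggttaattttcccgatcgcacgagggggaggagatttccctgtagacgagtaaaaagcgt
Rsad2, chr12:26456453-26456702, minus strand: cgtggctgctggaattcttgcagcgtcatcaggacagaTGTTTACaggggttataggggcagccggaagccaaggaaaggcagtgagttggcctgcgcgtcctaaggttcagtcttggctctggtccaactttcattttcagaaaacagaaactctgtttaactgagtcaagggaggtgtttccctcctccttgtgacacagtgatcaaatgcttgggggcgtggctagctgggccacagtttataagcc
Abcb1a, chr5:8566841-8567090, plus strand: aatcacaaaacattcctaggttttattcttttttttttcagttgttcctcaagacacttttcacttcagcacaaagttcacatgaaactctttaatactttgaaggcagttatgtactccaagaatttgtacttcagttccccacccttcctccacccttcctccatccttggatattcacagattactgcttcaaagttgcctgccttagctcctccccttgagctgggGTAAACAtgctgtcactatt
In Bcl2l11, which encodes the death-promoting protein BIM, the core begins 227 bases before 1 of the 2 listed starts, and it begins 20 bases before the start in Abcb1a, which encodes a drug efflux pump. It lies at 123 bases in Elovl6, an enzyme of fatty acid elongation, and at 212 bases, on the other strand, in Rsad2, an interferon-induced antiviral enzyme. A match is a description of letters and not of a bound site.

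Over windows of 300 bases, 250 before and 50 after each start, GTAAACA on either strand was found in 39 of 888 promoters of shared rises (4.39%) and in 10 of 205 promoters of shared falls (4.88%). It was found in 2.69% of the 11543 promoters of all genes tested and in 3.65% of all 32851 promoters in the RefSeq table. The AP-1 motif TGANTCA was in 6.19% of promoters of rises, 4.39% of promoters of falls and 5.03% of promoters of genes tested, against 7.81% of the whole table. The TCF/LEF core CTTTGAA was in 3.49%, 5.37% and 3.62% of these sets and in 5.13% of the whole table. The ETS core CCGGAAG was in 12.2%, 4.39% and 17.6% of them and in 8.86% of the whole table. The sets also differed in CpG content, with a median of 19 CpG pairs per window for rises, 14 for falls and 20 for genes tested. None of the 4 motifs contains another, and 181 rises and 46 falls had no promoter in the table.

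Many genes differed between genotypes in the same direction in both lineages. With cell type as a block, 1113 genes (9.92% of those tested) rose in Rictor-null cells and 261 (2.33%) fell at an adjusted p under 0.05 (limma, Benjamini-Hochberg), and 2999 genes had an unadjusted p under 0.05. A fit of this kind favours effects that are alike in both lineages, so the common sign of all 1374 called genes partly follows from the test. In 1089 of the rises and 253 of the falls, the Rictor-null pair of arrays lay wholly beyond the WT pair within each lineage, an ordering that 16.6% of all genes had upwards and 8.05% downwards. A gene is called shared here when it also had a smaller effect of at least 0.5 times its larger one. That left 858 shared rises (7.65% of genes tested) and 193 shared falls (1.72%), 9.37% in all, which are described and not tested further on the same contrast.

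The balance of rises and falls depended on the scaling between arrays. Rises made up 81.0% of the called genes in the values as deposited, 58.6% after quantile normalization and 44.4% after centring each array on its median. Quantile normalization gave 759 rises and 537 falls, and centring gave 775 and 969. The shift of the median gene behind this was small, from 0.02 log2 to -0.02 and -0.04. Large shared effects, over 0.5 log2, were mostly rises under each scaling: 166 rises and 14 falls as deposited, 139 and 19 after quantile normalization, and 133 and 19 after centring. Of the 1051 shared genes, 750 met the whole rule again after quantile normalization and 756 after centring.

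Single arrays also moved these counts. Without WT Tfh replicate 2 there were 819 called genes, 707 rises and 112 falls, and without Rictor-null Tfh replicate 2 there were 1736, with 1260 rises and 476 falls. The falls dropped in number when other arrays were left out, to 133 when Rictor-null Tfh replicate 1 was, to 140 when replicate 1 of Rictor-null Th1 was, to 157 and 168 when WT Th1 replicate 1 or 2 was, and to 163 when WT Tfh replicate 1 was. Shared falls numbered 358 without Rictor-null Tfh replicate 2. They numbered 95 when the other array of that group was left out, 124 and 79 when WT Tfh replicate 1 or 2 was, 110 when Rictor-null Th1 replicate 1 was and 126 when WT Th1 replicate 1 was. Without this WT Tfh replicate 2 the shared genes numbered 678 in all. Without WT Th1 replicate 1 and Rictor-null Tfh replicate 2, the arrays lowest on the third principal component, 979 genes rose and 261 fell.

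**Figure D1:**
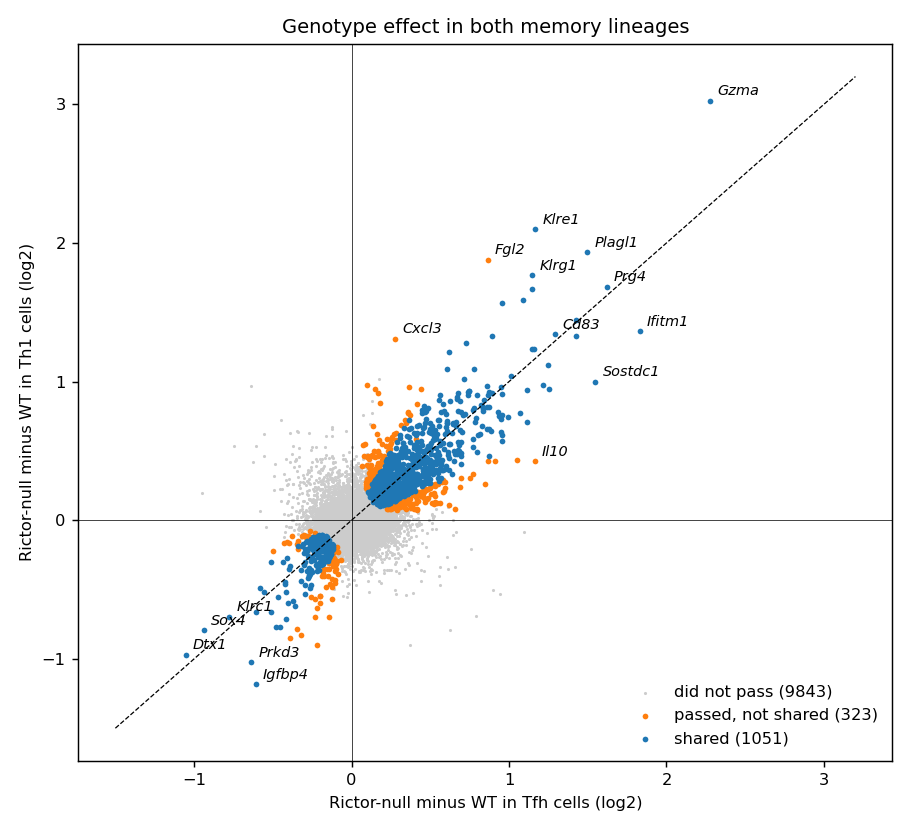
Each point is a gene, with its Rictor-null minus WT difference (log2) in Tfh cells on the horizontal axis and in Th1 cells on the vertical axis, each from 2 arrays per group; blue points are the 1051 shared genes, orange points the 323 genes that passed but were not shared, grey points those that did not pass, and the dashed line marks equal effects. Gzma lies farthest out at 2.28 and 3.03, Dtx1 lies at -1.05 and -0.97, and the shared genes lie on both sides of the dashed line.

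Most shared effects were small. The median shared rise was 0.29 log2, with 339 rises under 0.25 log2 and 22 over 1 log2, and the median shared fall was -0.21, with 134 falls smaller than 0.25 log2 and 1 larger than 1. The ratio of the smaller to the larger effect had a median of 0.757 among rises and 0.708 among falls, and it was over 0.8 in 340 rises and 66 falls. With 1 mean per group, 1269 genes rose (11.3%) and 259 fell (2.31%) in Tfh cells, and 847 rose (7.55%) and 333 fell (2.97%) in Th1 cells. Among the shared genes the effect was larger in Th1 cells for 411 rises (47.9%) and for 114 falls (59.1%). Over all genes, the effects in both lineages had a Pearson correlation across genes of 0.474 and a Spearman correlation of 0.292. The points of this correlation share platform and scaling but no array, and genes are not independent replicates. Of the 11217 genes, 3891 were higher in Rictor-null cells of both lineages, 2695 were lower in both and 4631 had opposite signs.

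Genes chosen in one lineage were then read in the other, in separate fits of the 4 arrays of each lineage that shared no array. Tfh cells alone gave 833 rises (7.43% of genes tested) and 114 falls (1.02%), and Th1 cells alone gave 923 rises (8.23%) and 350 falls (3.12%). Of the 833 rises in Tfh cells, 704 (84.5%) were higher in Rictor-null Th1 cells, against 50.0% of all genes. In Th1 cells 424 of them (50.9%) rose, against 8.23% of all genes, and 23 fell. The median effect of these genes was 0.37 in Tfh cells and 0.24 in Th1 cells.

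Of the 114 falls in Tfh cells, 96 (84.2%) were lower in Rictor-null Th1 cells, against 50.0% of all genes. In Th1 cells 42 of them (36.8%) fell, against 3.12% of all genes, and 2 rose. Read the other way, 797 of the 923 rises in Th1 cells (86.3%) were higher in Rictor-null Tfh cells, against 60.7% of all genes, and the 424 that rose in both were 45.9% of them, against 7.43%. The falls in Th1 cells gave the lowest of these shares. Of these 350 genes 224 (64%) were lower in Rictor-null Tfh cells, against 39.3% of all genes, 42 (12%) fell, against 1.02%, and 23 rose, with a median of -0.30 in Th1 cells and -0.06 in Tfh cells. Each of these fits has 2 residual degrees of freedom, and selection in one lineage inflates the effects of that lineage.

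**Figure D2:**
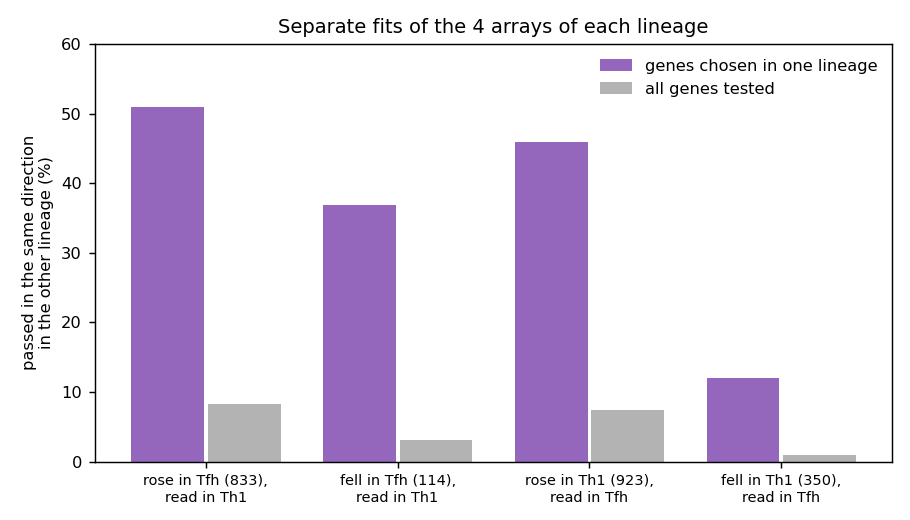
Bars give the share (%) of genes that passed in the same direction in the other lineage, for genes chosen in one lineage (purple, number in brackets) and for all 11217 genes tested (grey), from separate limma fits of the 4 arrays of each lineage. The purple bars stand at 50.9%, 36.8%, 45.9% and 12%, each above its grey bar at 8.23%, 3.12%, 7.43% and 1.02%.

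The largest shared rise was that of Gzma, which encodes granzyme A, a protease of cytotoxic granules (chromosome 13, 113093824 to 113100981). Its signals were 1633 and 1472 on the Rictor-null Tfh arrays, 300.4 and 288 on the WT Tfh arrays, 980.4 and 998 on the Rictor-null Th1 arrays and 99.1 and 87.8 on the WT Th1 arrays. Every Rictor-null array was above every WT array, across lineages too, and both WT Th1 arrays were the lowest of all. The block effect was 2.65 ± 0.126 log2 (SE, n = 4 arrays per genotype), a fold of 6.29 on the scale of the signal plus 32 that is used for all folds here (limma, Benjamini-Hochberg adjusted p = 9.78e-07). For dim probe sets the fold of the bare signal is larger. The effect was 2.28 in Tfh and 3.03 in Th1 cells, and the difference of 0.75 (95% interval 0.53 to 0.96) passed its own test (limma, adjusted p = 0.00499), so that the direction of the rise was common and its size was not.

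Prg4, the secreted proteoglycan lubricin, was the rise with the smallest p (chromosome 1, 150449412 to 150466221). It gave 177 and 179 on the Rictor-null Tfh arrays, 39.9 and 32.8 on the WT Tfh arrays, 182 and 186 on the Rictor-null Th1 arrays and 36.1 and 34.6 on the WT Th1 arrays. The WT arrays of both lineages lay together near the array median and the Rictor-null arrays lay together well above them. The block effect was 1.65 ± 0.0456 log2 (limma, Benjamini-Hochberg adjusted p = 3.48e-08), with 1.62 in Tfh and 1.68 in Th1 cells. The difference between lineages was 0.06 (95% interval -0.13 to 0.26).

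Plagl1, a zinc finger transcription factor (chromosome 10, 13090832 to 13131694), gave 1436 and 1261 against 465 and 447 in Tfh cells and 1141 and 1367 against 301 and 306 in Th1 cells, in each case Rictor-null before WT. No array of one genotype came within the range of the other. The block effect was 1.72 ± 0.0917 log2 (limma, Benjamini-Hochberg adjusted p = 1.68e-06), and its other probe set passed in the same direction with 0.78.

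The inhibitory receptor gene Lag3 (chromosome 6, 124904359 to 124912434) gave 341 and 396 against 117 and 116 in Tfh cells and 254 and 228 against 61.6 and 75.4 in Th1 cells. Its effect was nearly the same number in both lineages, 1.43 and 1.44, with a difference of 0.02 (95% interval -0.25 to 0.28) and a block effect of 1.43 ± 0.0612 log2 (limma, Benjamini-Hochberg adjusted p = 4.98e-07). Plac8, a small cysteine-rich protein (chromosome 5, 100551589 to 100572253), gave 2054 and 2172 against 769 and 763 in Tfh cells and 2244 and 2429.6 against 927 and 894 in Th1 cells, and its block effect was 1.38 with a difference between lineages of -0.10 (95% interval -0.29 to 0.09). Cd83, a surface protein of activated lymphocytes (chromosome 13, 43785112 to 43803133), gave 248 and 268 against 83.2 and 89.7 in Tfh cells and 313 and 319.9 against 106 and 105 in Th1 cells, with a block effect of 1.32 and a difference of 0.05 (95% interval -0.14 to 0.24). In all of these genes the Rictor-null arrays were above the WT arrays of both lineages without overlap.

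Klrg1, an inhibitory lectin-like receptor of long-lived effector cells, gave 329 and 374 against 142 and 140.1 in Tfh cells and 337 and 373 against 82.6 and 80.5 in Th1 cells, with effects of 1.15 and 1.77. Its rise was larger in Th1 cells by 0.62 (95% interval 0.40 to 0.84) (limma, Benjamini-Hochberg adjusted p = 0.0165). Cx3cr1, the fractalkine receptor of effector T cells, had effects of 1.15 and 1.67, and its difference did not pass (adjusted p = 0.0922).

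Some leading rises started from WT levels that were not above the array median, 35.7 to 37.7, which serves here as the limit of low signals since there are no detection calls. The lectin-like receptor gene Klre1 gave 106 and 105 against 26.3 and 32 in Tfh cells and 138 and 166 against 12.2 and 9.61 in Th1 cells, and all 4 WT arrays lay below it, so the gene was kept through its Rictor-null arrays. S1pr5, a receptor of sphingosine-1-phosphate in tissue egress, gave 113 and 115 against 35 and 38.5 in Tfh cells and 139.6 and 125 against 20.6 and 24.7 in Th1 cells, with both WT Th1 arrays and 1 WT Tfh array below it. Their effects of 1.17 and 2.10, and of 1.09 and 1.59, in Tfh and Th1 cells are therefore not well bounded in size. With every signal under the median raised to it, an alternative chosen after the data were seen, Klre1 rose by at least 0.98 and 1.41 and S1pr5 by at least 1.06 and 1.25. Their differences between lineages passed as deposited (limma, Benjamini-Hochberg adjusted p = 0.00378 and 0.0305) but not after that step, at 0.43 and 0.19 (adjusted p = 0.0981 and 0.24). That of Klrg1 passed both ways. Among the shared genes, 43 of the 858 rises were below the median on all WT arrays and 15 of the 193 falls on all Rictor-null arrays, and raising the low signals left 1003 shared genes.

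A pair of leading rises were larger in Tfh cells. Ifitm1, an interferon-induced membrane protein, gave 669 and 663 against 165 and 163 in Tfh cells and 285 and 290.0 against 99.8 and 84.6 in Th1 cells, with effects of 1.83 and 1.37. Sostdc1, whose secreted product antagonises BMP and Wnt ligands, gave 418 and 404 against 117 and 122 in Tfh cells and 141 and 151 against 55.9 and 58.2 in Th1 cells, with effects of 1.55 and 1.00, and its other probe set also rose, by 1.17 over both lineages. The differences, -0.47 (95% interval -0.67 to -0.26) and -0.55 (95% interval -0.73 to -0.37), passed (limma, Benjamini-Hochberg adjusted p = 0.0377 and 0.0118), and with low signals raised to the median that of Sostdc1 passed and that of Ifitm1 did not (adjusted p = 0.0572).

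Next in rank, and named after their values were seen, came the growth factor receptor gene Igf1r and the chemokine gene Cxcl10. Igf1r gave 316 and 325 against 122 and 132 in Tfh cells and 425 and 386 against 157 and 150.1 in Th1 cells, a block effect of 1.19 ± 0.0478 log2 (limma, Benjamini-Hochberg adjusted p = 3.98e-07) with a difference of 0.09 (95% interval -0.11 to 0.29). Cxcl10 had a block effect of 1.18 with 1.25 in Tfh and 1.12 in Th1 cells.

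**Figure D3:**
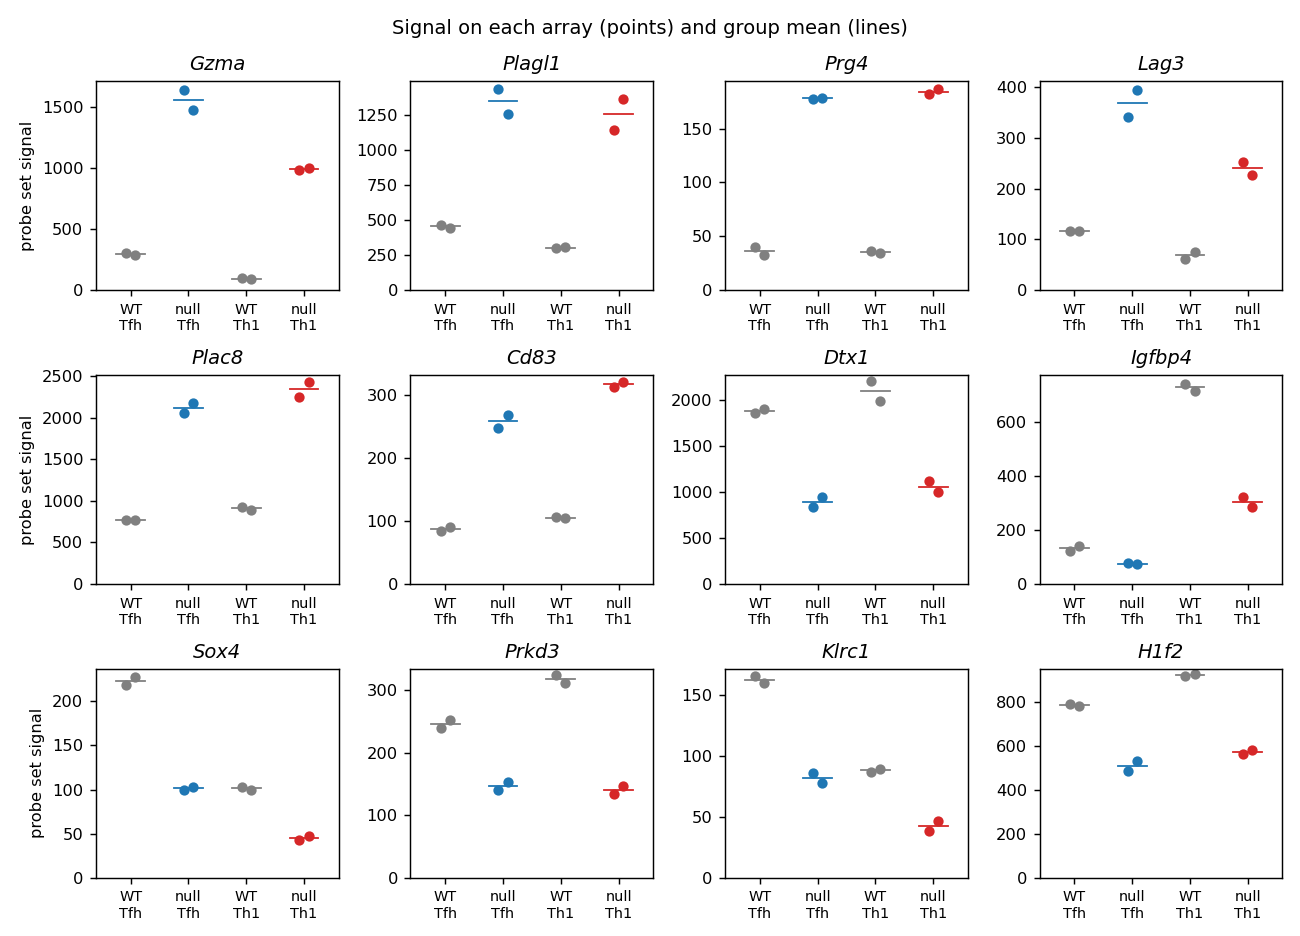
Each panel plots the probe set signal (linear scale from 0) of a gene on the 8 arrays, in the order WT Tfh, Rictor-null Tfh, WT Th1 and Rictor-null Th1; points are arrays, 2 per group, and lines are group means. In the 6 panels of rises both Rictor-null arrays lie above both WT arrays of their lineage, as for Gzma at 1633 and 1472 against 300.4 and 288 in Tfh cells, and in the 6 panels of falls they lie below them.

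Among the shared falls, 1 was over 1 log2 in size. Dtx1, which encodes the Notch regulator Deltex1 (chromosome 5, 120680203 to 120711867), gave 837 and 941 on the Rictor-null Tfh arrays, 1858 and 1893 on the WT Tfh arrays, 1112 and 993 on the Rictor-null Th1 arrays and 2199.6 and 1987 on the WT Th1 arrays. Every Rictor-null array lay below every WT array, in both lineages. The block effect was -1.01 ± 0.0577 log2, a fold of 2.02 (limma, Benjamini-Hochberg adjusted p = 2.27e-06), with -1.05 in Tfh and -0.97 in Th1 cells and a difference of 0.08 (95% interval -0.16 to 0.33). A second probe set of Dtx1 fell by 0.21 (adjusted p = 0.0365), so the size of the fall depended on the probe set.

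Sox4, a transcription factor of early lymphocytes (chromosome 13, 28948919 to 28953699), gave 99.9 and 103 against 219 and 228 in Tfh cells and 43.3 and 46.7 against 103 and 100.0 in Th1 cells. Both lineages had about the same effect, -0.94 and -0.79, although the WT Tfh level was above the WT Th1 level. The block effect was -0.87 ± 0.0458 log2 (limma, Benjamini-Hochberg adjusted p = 1.64e-06), and of its other probe sets 1 passed with -0.38 and those at -0.16 and -0.04 did not. Igfbp4, a binding protein of insulin-like growth factors (chromosome 11, 99040005 to 99052655), had the opposite order of lineages, with 77.3 and 73.3 against 123 and 141 in Tfh cells and 319.6 and 285 against 739.6 and 714 in Th1 cells. It fell by more in Th1 cells, -1.18 against -0.61, a difference of -0.58 (95% interval -0.80 to -0.35) with a Benjamini-Hochberg adjusted p of 0.0257 in limma, and its 5 other probe sets were all negative over both lineages, 2 of them past the test.

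The kinase gene Prkd3 gave 141 and 153 against 240.0 and 252 in Tfh cells and 134 and 147 against 325 and 313 in Th1 cells, a block effect of -0.83, and its second probe set fell as well, by 0.56. Klrc1, which encodes the receptor NKG2A, gave 86 and 77.7 against 165 and 160.1 in Tfh cells and 38.6 and 46.4 against 87.2 and 89.5 in Th1 cells and fell with a block effect of -0.74, in contrast to the lectin-like receptors that rose. The linker histone gene H1f2 fell with -0.63 and Pag1, an adaptor that restrains Src kinases, with -0.54. Cers6, a ceramide synthase (-0.62), Afp (-0.59) and Anxa1, which encodes annexin A1 (-0.56), complete the leading falls with Cd163l1 (-0.61) and Usp14 (-0.54), a proteasome-bound ubiquitin protease whose 3 other probe sets gave 0.06, 0.01 and -0.08 and did not pass. Cd163l1 marks gamma-delta T cells. The other 2 markers of those cells on the array, Sox13 and Blk, summed to 57.6 to 65.2 against 64.2 to 71.6 in Tfh cells and to 59.1 to 62.4 against 59.3 to 67.9 in Th1 cells, Rictor-null before WT, so that Cd163l1 alone made up most of the gap in this list. The part of such cells in the result was not tested.

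Many shared effects had intervals that would admit a sizeable difference between lineages. The 95% interval of the difference had a median halfwidth of 0.202 log2 among shared rises and 0.199 among shared falls, beside median effects of 0.29 and -0.21. In 74 rises and 5 falls the whole interval lay within 0.5 times the mean effect. Over all genes the difference passed in 136 (1.21% of those tested; 2145 at an unadjusted p under 0.05), and among the shared genes in 10 rises and 1 fall. The count of 136 moved widely with single arrays. It was 1614 without Rictor-null Tfh replicate 1, 27 and 30 without WT Tfh replicates 1 and 2, 31 and 50 without Rictor-null Th1 replicates 1 and 2, and 77 and 60 without WT Th1 replicates 1 and 2. Shared genes with a difference near 0 included Bhlhe40 with 0.01 (95% interval -0.17 to 0.19), Gadd45b with 0.01 (95% interval -0.16 to 0.18), Nfil3 with 0.02 (95% interval -0.16 to 0.21) and Cxcr4 with 0.02 (95% interval -0.19 to 0.24).

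The limit of 0.5 on the ratio of sizes separated genes with nearly the same values. Itga1 (0.31 and 0.61) and Dkkl1 (-0.15 and -0.29) were just inside it, and Pdp1 (0.12 and 0.24) and Errfi1 (0.30 and 0.15) were just outside. Also outside lay Cxcl3, a neutrophil chemokine (0.28 in Tfh and 1.31 in Th1 cells, a ratio of 0.213), Il10, the immunoregulatory cytokine (1.16 and 0.42, a ratio of 0.364), and Fgl2, a secreted fibrinogen-like immunoregulator (0.86 and 1.88, a ratio of 0.46 that is close to the limit). All 3 rose in the block fit, and their differences passed the test of the interaction. The difference was 1.03 (95% interval 0.86 to 1.20) for Cxcl3 (limma, Benjamini-Hochberg adjusted p = 0.000379). It was -0.74 (95% interval -0.93 to -0.55) for Il10 and 1.02 (95% interval 0.75 to 1.28) for Fgl2 (adjusted p = 0.00378 and 0.00367). With low signals raised to the median, Cxcl3 gave -0.01 and 0.35 and its block effect did not pass. Fgl2 then gave 0.28 in Tfh and 1.46 in Th1 cells, so its closeness to the limit rested on low signals.

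**Figure D4:**
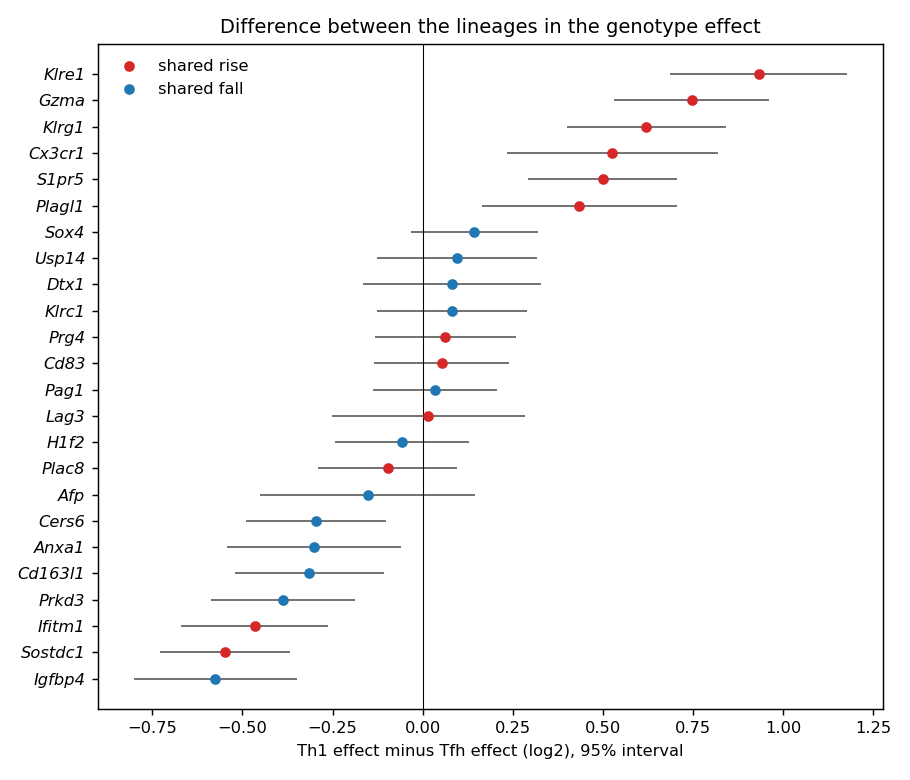
For the 12 largest shared rises (red) and the 12 largest shared falls (blue), points give the Th1 effect minus the Tfh effect (log2) and lines its 95% interval from limma over 8 arrays. The interval of Prg4, -0.13 to 0.26, spans 0, while those of Klrg1, 0.40 to 0.84, and Sostdc1, -0.73 to -0.37, do not.

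Among the subunits and regulators of mTOR complex 2 a single gene passed. Of 13 tested, 1 rose and none fell, beside 9.92% and 2.33% of all genes. The median was 0.00 against 0.02 over all genes, and Mapkap1, which encodes the subunit SIN1, gave 0.03 (limma, Benjamini-Hochberg adjusted p = 0.755). The gene that rose was Prr5l, which encodes a partner of the complex that binds Rictor (chromosome 2, 101713110 to 101883052). Its signals were 116 and 129 on the Rictor-null Tfh arrays, 48.9 and 54.1 on the WT Tfh arrays, 230.2 and 188 on the Rictor-null Th1 arrays and 65.5 and 61.3 on the WT Th1 arrays. The Rictor-null arrays were above the WT arrays in each lineage, and all 4 were above every WT array. The block effect was 1.11 ± 0.0912 log2, a fold of 2.16 (adjusted p = 2.57e-05), with a difference of 0.44 (95% interval 0.18 to 0.70), and its second probe set rose by 0.59.

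Of 26 genes of the PI3K, AKT and AGC kinase pathway, 3 rose (9.92% of all genes did) and 1 fell (2.33% did), counts near the background, and all 4 were shared. For comparison with the shared counts of this and the other lists, 7.65% of all genes were shared rises and 1.72% shared falls. The median was 0.02, as over all genes. The 4 genes were Pik3r5, a regulatory subunit of PI3K gamma (0.33), Prkca, which encodes protein kinase C alpha (0.27), Phlpp2, a phosphatase of AKT (0.23), and the kinase gene Sgk3 (-0.23). Sgk3 gave 40.5 and 40.8 against 48.5 and 51 in Tfh cells and 40.4 and 40.8 against 61.8 and 51.2 in Th1 cells, a small change at a low level, and Akt1 gave 0.09 (limma, Benjamini-Hochberg adjusted p = 0.279).

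Of 23 FOXO factors and targets, 8 rose and 1 fell, beside 9.92% and 2.33% of all genes. Of these, 6 and 1 were shared, and the median of the list was 0.04. The factor gene Foxo1 itself fell. It gave 580.5 and 543 against 666 and 622 in Tfh cells and 617 and 584 against 722 and 734 in Th1 cells, a block effect of -0.23 ± 0.0458 log2 (limma, Benjamini-Hochberg adjusted p = 0.00883), with the arrays of each lineage apart by little. The rises included Klf4, a factor of quiescence (0.58), Trib2, a pseudokinase (0.37), Gadd45a, a stress response gene (0.23), and the death ligand gene Fasl (0.21). Bcl2l11 gave 734 and 717 against 605 and 596 in Tfh cells and 604 and 674 against 478 and 461 in Th1 cells, a block effect of 0.34. Irs2, the insulin receptor substrate, and Gabarapl1, a gene of autophagy, rose by 0.32 and 0.41 without reaching the ratio of sizes. Targets that FOXO1 is known to maintain in T cells moved unequally: Ccr7 rose by 0.21, while Klf2 gave -0.10 (adjusted p = 0.221), Il7r -0.02 (adjusted p = 0.79) and S1pr1 -0.06 (adjusted p = 0.782). Under quantile normalization or median centring 6 of the list rose, and Ccr7 and Fasl did not pass under either.

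Most of the transcription factors listed for effector and memory fate rose. Of 23 tested, 15 rose, beside 9.92% of all genes, and none fell. This list, like all others here, was chosen with earlier results of these data known, so an excess over all genes is partly built in and is a description. Of the rises 12 were shared, and the median was 0.28 against 0.02 over all genes. Bhlhe40, a repressor that Th1 cells use for cytokine production, gave 3478 and 3706 against 1849 and 1836 in Tfh cells and 4252 and 4308 against 2220.1 and 2156 in Th1 cells, with 0.95 ± 0.0405 log2 (limma, Benjamini-Hochberg adjusted p = 4.98e-07), and its effects of 0.95 and 0.96 were nearly equal. Nfil3 gave 239.7 and 247 against 140.1 and 144 in Tfh cells and 264 and 242 against 146 and 146 in Th1 cells and an effect of 0.67. Ikzf2, which encodes Helios (0.72), Zeb2 (0.63), Zbtb32 (0.56), Irf4 (0.45), Rbpj (0.44) and Tox (0.41) also rose and were shared. The other probe sets of Zeb2 rose by more, 1.52 and 0.85. Ahr (0.54), Batf (0.28) and Prdm1, which encodes Blimp-1 (0.22), rose without being shared, and Ahr differed between lineages, with 0.17 in Tfh and 0.91 in Th1 cells. The lineage factors did not pass the block fit: Tbx21, which encodes T-bet, gave 0.05 (adjusted p = 0.458) and Bcl6 gave 0.18 (adjusted p = 0.116). The effect of Bcl6 was 0.36 in Tfh and 0.00 in Th1 cells, a pattern that this fit does not favour.

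Of 16 quiescence and naive-state factors tested, 7 fell and 2 rose, beside 2.33% and 9.92% of all genes. Of these, 5 and 1 were shared, and the median of the list was -0.10. The falls were 4 with the mean of each gene's probe sets and 9 after median centring. Bach2, a repressor that restrains effector differentiation, gave 379 and 370.2 against 492 and 497 in Tfh cells and 392 and 384 against 590.3 and 604 in Th1 cells and an effect of -0.48 ± 0.0503 log2 (limma, Benjamini-Hochberg adjusted p = 0.000133). Sox4, Foxo1, Myb (-0.24) and Bcl11b (-0.15) were the other shared falls. Satb1, a chromatin organiser of T cells, gave 1286 and 1205 against 1573 and 1559.5 in Tfh cells and 1001 and 1107 against 1885 and 1899 in Th1 cells and fell by more in Th1 cells, -0.83 against -0.32. Lef1 fell with -0.22, whereas Gata3 (0.35, shared) and Id3 (0.47) rose. All other probe sets of Bach2 and Satb1 fell too. The falls of Bcl11b and Lef1 rested on 1 probe set each, since the others gave 0.07, -0.11 and -0.12 for Bcl11b and -0.03 for Lef1, the latter with 0.47 in Tfh and -0.52 in Th1 cells, and did not pass. The others of Foxo1 (-0.22 and -0.08) and Myb (-0.26 and -0.21) were negative without passing. The falls of the list numbered 5 to 7 over the fits that left out an array and 5 without both arrays low on the third component.

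Of 17 genes of cytotoxic granules 7 rose, beside 9.92% of all genes, and none fell. Of the rises 5 were shared, Gzma first, and the median was 0.14, while 5 rose under either other scaling. Gzmb, which encodes granzyme B, gave 272 and 298 against 157 and 161 in Tfh cells and 258 and 263 against 90.5 and 87 in Th1 cells, with effects of 0.73 and 1.28 that differed by 0.55 (95% interval 0.36 to 0.73). Stx11, a syntaxin of granule release, gave 409 and 384 against 197 and 206 in Tfh cells and 299 and 305 against 159.7 and 156 in Th1 cells and had a difference between lineages of -0.06 (95% interval -0.24 to 0.12). Cst7, an inhibitor of granule proteases (0.44), and Fasl were shared, and Prf1, the pore-forming perforin (0.33), and Gzmk (0.33) rose without reaching the ratio. Of 9 lectin-like and related receptors of NK cells that passed the filter on low values 6 rose and 1 fell, 5 and 1 of them shared, beside 9.92% and 2.33% of all genes that rose and fell. Klre1 passed this filter only through its Rictor-null arrays, and without any filter 5 of 17 rose and 1 fell. After Klre1 and Klrg1 came Klrd1 (0.37), Klrk1, which encodes NKG2D (0.37), and Cd160 (0.25).

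Markers of NK cells and of CD8 T cells were measured on the same arrays. Ncr1, Tyrobp, Klra7, Klra8 and Cd244a, which define NK cells, were below the array median on all 8 arrays, and of the 2 NK markers tested Il2rb rose (0.35). Fcer1g, the other NK marker tested, did not pass. Il2rb, the beta chain of the IL-2 and IL-15 receptors, is also a gene of T cells and made up most of the gap in the summed list, which was 508 to 548 against 385 to 403 in Tfh cells and 538 to 540.0 against 464 to 495 in Th1 cells, Rictor-null before WT. Without Il2rb the other 6 markers summed to 118 to 132 against 123 to 125 in Tfh cells, where the genotypes overlapped, and to 120 to 124 against 110 to 118 in Th1 cells. Cd8a gave -0.08 and Cd8b1 0.14, neither past the test, and their sum was 103 to 106 against 92.5 to 92.6 in Tfh cells and 91.9 to 101 against 97.1 to 106 in Th1 cells.

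Inhibitory receptors rose more often than they fell. Of 12 tested, 7 rose and 2 fell, beside 9.92% and 2.33% of all genes. Of these, 6 and 2 were shared, and the median of the list was 0.20. Ctla4 gave 2068 and 2053 against 1279.5 and 1256 in Tfh cells and 2294 and 2329.7 against 1228 and 1289 in Th1 cells, with 0.77 ± 0.0476 log2 (limma, Benjamini-Hochberg adjusted p = 3.78e-06). Cd200 (0.54) and Btla (0.16) rose and were shared with Lag3, Klrg1 and Cd160, and Pdcd1, which encodes PD-1, rose by 0.55 with 0.77 in Tfh and 0.34 in Th1 cells. Btla did not pass after quantile normalization or median centring. The receptors that fell were Cd200r1 (-0.33), which binds CD200, and Lair1 (-0.38), a receptor of collagen.

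Of 16 costimulatory receptors and ligands 7 rose and none fell, beside 9.92% and 2.33% of all genes. Of the rises 6 were shared, and the median of the list was 0.07. Tnfrsf4, which encodes OX40, gave 807 and 929 against 418 and 444 in Tfh cells and 1144 and 992 against 573 and 532 in Th1 cells, with 0.93 ± 0.0611 log2 (limma, Benjamini-Hochberg adjusted p = 5.49e-06) and a difference of -0.05 (95% interval -0.31 to 0.22). Cd83, Tnfsf8, the ligand of CD30 (0.76), Slamf6 (0.40) and Icos (0.37) were shared, as was Tnfrsf1b (0.43), whose second probe set gave -0.08 and did not pass.

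Most genes of the Tfh signature rose, with a median effect of about the same size in Th1 as in Tfh cells. Of 22 genes tested 14 rose and none fell, beside 9.92% and 2.33% of all genes. Of the rises 13 were shared, and the median of the list was 0.38 in Tfh and 0.39 in Th1 cells. Tox2, a factor of Tfh development, gave 897 and 1045 against 428 and 432 in Tfh cells and 376 and 361 against 225 and 201 in Th1 cells, with 1.12 and 0.71. Il21, the cytokine of B cell help, gave 354 and 319 against 179.6 and 179.7 in Tfh cells and 196 and 223 against 141 and 138 in Th1 cells, and Il4 had effects of 0.44 and 0.46. With low signals raised to the median Il4 gave 0.10 in Tfh and 0.45 in Th1 cells, so its similar size rested on signals below the median. Izumo1r, which encodes folate receptor 4, gave 409 and 457 against 269 and 275 in Tfh cells and 489.7 and 453 against 346 and 318 in Th1 cells. Members that define the lineage did not pass the block fit, which favours effects alike in both lineages. Cxcr5, the receptor that leads Tfh cells into the follicle, had 0.49 in Tfh and 0.00 in Th1 cells, and Bcl6 had 0.36 and 0.00. Their block tests did not pass (limma, Benjamini-Hochberg adjusted p = 0.132 and 0.116), nor did their differences (adjusted p = 0.0883 and 0.0628). In the model with 1 mean per group, the mean of both effects passed for Cxcr5 and Bcl6 (limma, Benjamini-Hochberg adjusted p = 0.0168 and 0.00969).

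Of 20 genes of the Th1 signature 8 rose and 1 fell, beside 9.92% and 2.33% of all genes. Of these, 7 and 1 were shared, and the median of the list was 0.12. Cx3cr1, Klrg1, Gzmb and Bhlhe40 led the rises, followed by the chemokine genes Ccl4 (0.56) and Ccl5 (0.35). Il18r1, a receptor chain for IL-18, fell (-0.18). Ifng, the cytokine that defines the lineage, gave -0.03 (limma, Benjamini-Hochberg adjusted p = 0.68).

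Of 13 regulatory T cell markers tested 10 rose, beside 9.92% of all genes, and none fell, while Entpd1, Gpr83 and Ikzf4 did not pass. Of the rises 6 were shared, the median was 0.48, and the sum of 14 markers was 7973 to 8056 against 4945 to 5066 in Tfh cells and 8585 to 8689 against 5315 to 5338 in Th1 cells, Rictor-null before WT. Ctla4, Tnfrsf4, Ikzf2, Izumo1r and Capg (0.48) were shared with Il2ra (0.15), and Nrp1 (0.69), Il10, Tnfrsf18 (0.31) and Itgae (0.28) rose without being shared. Il2ra was above the array median on 3 arrays, all of them Rictor-null, and passed the filter on low values only through these. With low signals raised to the median Il2ra gave 0.01 in Tfh and 0.16 in Th1 cells. Its block effect was then 0.08 and did not pass (limma, Benjamini-Hochberg adjusted p = 0.241). Foxp3, the factor that defines these cells, was above the array median on 1 of 8 arrays, with a mean signal of 26.7. Without the filter its block effect was 0.30 (limma, Benjamini-Hochberg adjusted p = 0.0599). Activated Tfh and Th1 cells also express several of these markers, and Ctla4, Tnfrsf4, Ikzf2 and Izumo1r are in other lists above. The part of regulatory T cells in these results was not tested.

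Of 25 homing receptors and integrins 8 rose and 2 fell, beside 9.92% and 2.33% of all genes. Of these, 7 and 1 were shared, and the median of the list was 0.11. Ccr9, the receptor of gut homing, gave 66.8 and 69.8 against 20.1 and 19.4 in Tfh cells and 156 and 144 against 28 and 30.9 in Th1 cells, with all 4 WT arrays below the array median. Its rise was at least 0.53 in Tfh and 1.40 in Th1 cells with low signals raised to the median, beside 0.95 and 1.57 as deposited. The difference between lineages passed both ways, but its size is not well bounded where both WT levels are this low. Cxcr4, the receptor of CXCL12, gave 1468 and 1299.5 against 821 and 771 in Tfh cells and 1307 and 1348 against 743 and 760.1 in Th1 cells and an effect of 0.78 ± 0.0487 log2 (limma, Benjamini-Hochberg adjusted p = 4.01e-06). The integrin genes Itga1 (0.46) and Itgav (0.41) rose, while Itgb2 (-0.18, shared) and Gpr183 (-0.21), an oxysterol receptor of follicular positioning, fell. After median centring 6 members rose and 6 fell. Of 22 cytokine receptor chains 7 rose and 2 fell, beside the same shares of all genes, 9.92% and 2.33%. Of these, 4 and 2 were shared, the median of the list was -0.01, and 4 rose under either other scaling. Il10ra gave 135 and 126 against 91.4 and 91.9 in Tfh cells and 132 and 134 against 72.9 and 76.6 in Th1 cells, and Tgfbr3 fell (-0.41).

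Of 13 genes of the BCL2 family 4 rose and none fell, beside 9.92% and 2.33% of all genes. Of the rises 3 were shared, and the median of the list was 0.11. Both a survival gene and death-promoting genes were among the rises. Bcl2 gave 1771 and 1948 against 1109 and 1183 in Tfh cells and 1590.2 and 1649 against 1133 and 1145 in Th1 cells, with 0.59 ± 0.0541 log2 (limma, Benjamini-Hochberg adjusted p = 5.27e-05), and Bid (0.40), Bcl2l11 and Pmaip1, which encodes NOXA (0.63), rose beside it. After quantile normalization 1 member of the family fell and after median centring 2 did.

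Early-response genes, which rise on receptor signals and also during cell handling, formed another group. Of 30 tested 13 rose and none fell, beside 9.92% and 2.33% of all genes. Of the rises 11 were shared, and the median of the list was 0.17. Nr4a3 gave 1627 and 1805 against 865 and 904 in Tfh cells and 1926 and 1976 against 1124 and 1121 in Th1 cells, with 0.86 ± 0.0508 log2, and Gadd45b gave 2701 and 2669 against 1512 and 1495 in Tfh cells and 3075 and 3012 against 1666 and 1725 in Th1 cells, with 0.83 ± 0.0385 log2 (limma, Benjamini-Hochberg adjusted p = 2.87e-06 and 9.78e-07). Fosl2 rose by 1.10 and Atf3 by 0.69, whereas Nr4a1, Dusp1 and Ier2 rose by 0.26, 0.26 and 0.30. The rises of Nr4a3 and Fosl2 rested on 1 probe set each, since the other gave 0.02 and 0.09 and did not pass. The other probe sets of Gadd45b rose, by 0.44 and 0.76. The part of handling in the other groups that rose on the same arrays was not tested.

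Of 17 genes of glycolysis 5 rose and 1 fell, beside 9.92% and 2.33% of all genes. Of these, 4 and 1 were shared, and the median of the list was 0.07. Slc2a3, a glucose transporter, gave 1225 and 1288 against 880.4 and 833 in Tfh cells and 1632 and 1535 against 1067 and 1006 in Th1 cells and rose by 0.57, followed by Slc16a1, a lactate transporter (0.37), Pkm (0.25) and Hk2 (0.18). After quantile normalization 3 of the list rose and after median centring 4, and Hk2 did not pass under either. Pfkl, a phosphofructokinase, fell (-0.18), a call that rested on its brightest probe set and was 0.00 with the mean of its probe sets. Of 21 genes of sterol and fatty acid synthesis 8 rose and none fell, beside 9.92% and 2.33% of all genes. Of the rises 7 were shared, and the median of the list was 0.09. The desaturase gene Scd2 gave 425 and 432 against 269 and 274 in Tfh cells and 331 and 320.3 against 195 and 189 in Th1 cells, with 0.64 ± 0.0404 log2 (limma, Benjamini-Hochberg adjusted p = 4.41e-06), and Cyp51 (0.33), Elovl6 and Acly (0.32) followed. A second probe set of Scd2 gave 0.08 and did not pass, while the other probe sets of Cyp51, Elovl6 and Acly rose. After quantile normalization 4 of this list rose and after median centring 5. Of 21 ferroptosis and antioxidant genes 2 rose, Slc3a2 (0.29, shared) and Sod2 (0.20), a share near that of all genes, and Gpx4, which reduces lipid peroxides, gave 0.06 (adjusted p = 0.478).

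Of 26 interferon-stimulated genes 8 rose and none fell, beside 9.92% and 2.33% of all genes. Of the rises 7 were shared, and the median of the list was 0.10. Ifitm3 gave 277 and 238 against 99.6 and 95.3 in Tfh cells and 335 and 283 against 123 and 102 in Th1 cells, with 1.20 ± 0.0681 log2 (limma, Benjamini-Hochberg adjusted p = 2.27e-06), and Ifit3 gave 154 and 153 against 94.9 and 102 in Tfh cells and 158 and 151 against 99.3 and 105 in Th1 cells, with 0.49. Mx1 (0.42), Rsad2 (0.42) and Oasl2 (0.33) rose by less, and the remaining 18 genes of the list did not pass.

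Of 23 proliferation genes 10 rose and none fell, beside 9.92% and 2.33% of all genes. Only 4 of the rises were shared, Birc5 (0.40), Top2a (0.31), Stmn1 (0.24) and Mcm6 (0.21), and the median of the list was 0.17. The rises of Top2a, Stmn1 and Mcm6 rested on 1 probe set each, since the other gave 0.06, 0.07 and 0.12 and did not pass. After quantile normalization 8 of the list rose and after median centring 7. Mki67 gave 162 and 167 against 137 and 122 in Tfh cells and 195 and 192 against 114 and 113 in Th1 cells and had effects of 0.28 and 0.63. Without both arrays low on the third component 7 of the list rose. Of 22 cytosolic ribosomal protein genes 1 rose and none fell, beside the same shares of all genes, with a median of 0.00.

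**Figure D5:**
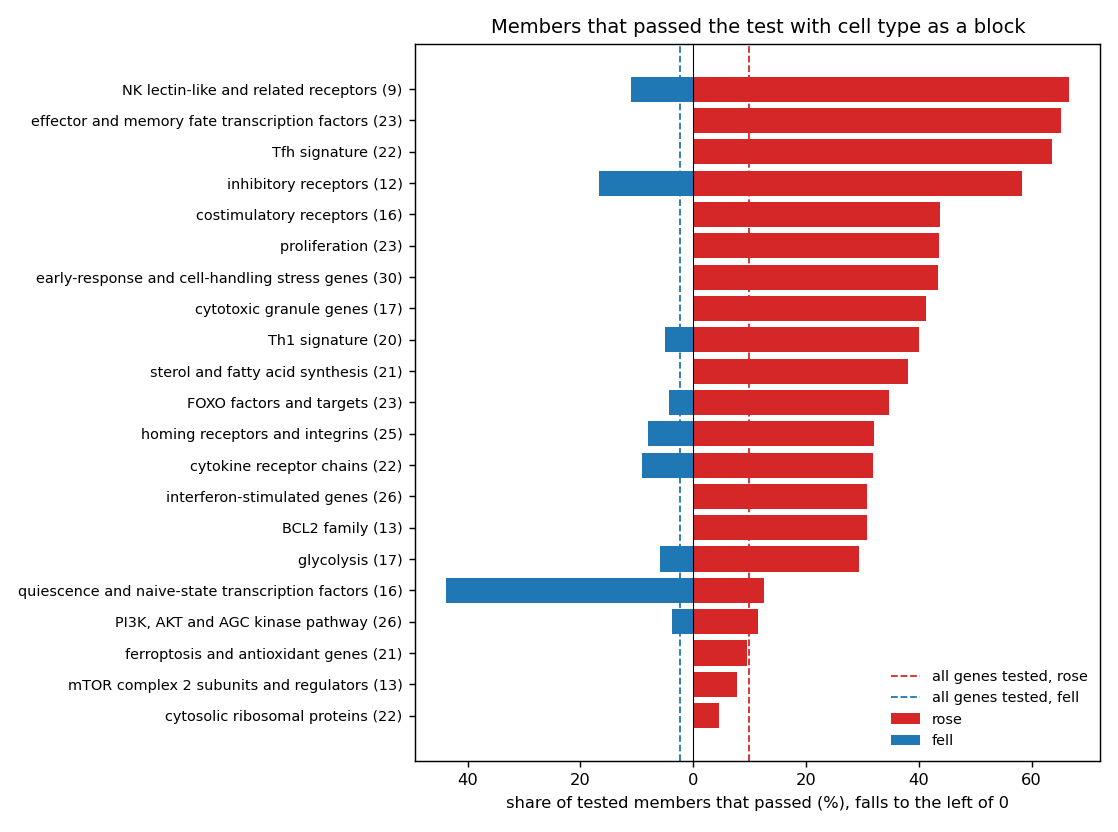
For each of 21 gene lists (tested members in brackets), bars give the share of members that rose (red, to the right) or fell (blue, to the left) in the block fit, in percent; dashed lines mark the shares among all 11217 genes, 9.92% and 2.33%. The bars hold members that passed the filter on low values: 6 of 9 NK lectin-like receptors rose, but 5 of 17 without the filter, beside 15 of 23 effector and memory fate factors and 14 of 22 genes of the Tfh signature. The longest blue bar is that of quiescence and naive-state factors (7 of 16, and 4 with the mean of probe sets). All lists were chosen with earlier results of these data known, so bars beyond the dashed lines are descriptions.

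Most markers of B cells were below the array median. Of the 12 B cell markers 9 were not tested because they were not above the array median on enough arrays, Pax5, Cd79a and Ms4a1 among them, while Cd74 (0.32) and Cd79b (0.33) rose and Cd22 fell (-0.34). The sum of the B cell markers was 602 to 666 against 637 to 638 in Tfh cells and 459.8 to 512 against 514 to 553 in Th1 cells, Rictor-null before WT. Cd22, the brightest of them, gave 298 and 331 against 352 and 337 in Tfh cells and 164 and 133 against 246 and 223 in Th1 cells. Cd74 and Cd79b were higher on the Rictor-null arrays of each lineage. The lower sums of Rictor-null Th1 cells therefore came from Cd22 alone. Of the 8 myeloid and dendritic markers tested Cst3 rose (0.28), and the sum of the list over 14 probe sets was 1050 to 1068 against 965 to 986 and 994 to 1145 against 945 to 970. Cst3 gave 610 and 629 against 527 and 494 in Tfh cells and 738 and 595 against 533 and 529 in Th1 cells. The higher sums of Rictor-null cells came from Cst3 alone. Of the 10 markers that define CD4 T cells Lat fell (-0.25) and 9 did not pass.

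Probe sets that had not been used to choose the shared genes gave the direction again in most cases. For 410 of the 858 shared rises, 662 further probe sets passed the filter. Of these, 593 (89.6%) were higher in Rictor-null cells, against 59.4% of all probe sets, 260 (39.3%) rose, against 8.34%, and 2 fell. For 85 of the 193 shared falls there were 148 further probe sets, of which 127 (85.8%) were lower, against 40.6% of all, 36 (24.3%) fell, against 1.72%, and 1 rose. Probe sets of a gene are read from the same RNA on the same arrays and are not replicates of the genotype.

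Shared genes lay on every autosome and on the X chromosome. The share of tested genes that were called was 9.46% on chromosome 15, which carries Rictor, and at most 16.9%, on chromosome 18. Of 30 genes tested within 10 Mb of Rictor only the cadherin gene Cdh6 passed (-0.14, limma with Benjamini-Hochberg adjustment, adjusted p = 0.0498). The genes whose lineage-centred pattern over the 8 arrays was most like that of Gzma were Arhgap21, Ctla4, Plagl1, Pim3 and Icam1, with Pearson correlations of 0.996 to 0.998. These values use the same contrast between genotypes and are a description.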

How the data were processed

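The deposited table of the whole series holds 1 column per array, with the intensity of 45037 probe sets on a linear scale as the authors deposited it. Per the submitters' processing notes MAS5 and RMA were used, in roles that are not stated. Their scaling between arrays is unknown from the sources used here. No further column of sample values was left aside.

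A pseudocount of 32 was added and log2 taken. Probe sets above their array's median on at least 2 of 8 arrays were kept (23725). Of all probe sets 34945 had 1 gene symbol, 932 several and 9160 none, and each gene was read on its brightest probe set with 1 symbol, giving 11217 genes, 11168 of them matched to RefSeq positions of GRCm38.p6. limma 3.58.1 in R 4.3.3 (lmFit, eBayes with default settings) was fitted with terms for cell type and genotype to all 8 arrays (5 residual and 5.35 prior degrees of freedom), with 1 mean per group for the effect in each lineage and their difference (4 and 6.70), and separately to the 4 arrays of each lineage. Adjusted p values follow Benjamini-Hochberg over all genes, and genes with an adjusted p under 0.05 are said to have risen or fallen. The smallest two-sided p of an exact permutation within cell types is 0.0556, and none was run per gene. The labels call replicates biological, and each is a pool of mice. The number of arrays limits the precision.

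The genes named are the 12 largest shared rises and the 12 largest shared falls, 3 members of each pathway list with the smallest p, the 3 brightest of each marker list, all measured genes of the mTOR complex 2 list, 3 called genes with the smallest interaction p and 4 genes at the limit of the size ratio. Names of RIKEN, predicted and clone genes and of receptor segments were not used. List members that passed, the next genes in rank and a few reference genes were added after their values were seen. The members and all gene lists were chosen with earlier results of these data known. Promoter sequences are RefSeq's, searched on both strands.

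On simulated data of the same size, the block fit called 48 of 66 genes changed by 0.25 log2 in both lineages (72.7%), 66 of 67 changed by 0.5 (98.5%) and 67 of 67 changed by 1. It called 0 of 100 genes changed by 1 in Tfh cells only and 7 of 10917 unchanged genes. Alternatives covered scaling, filter, pseudocount, probe sets, variance trend, array weights, the model, the size rule, low signals and each array left out. Figures were drawn with matplotlib 3.10.9 and pandas 2.3.3 in Python 3.11.15.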

Additional observations from a re-analysis of the deposited data

Results flagged for a closer look

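For 16 genes named in the text, the genotype effect differed between the lineages by the test of the interaction itself (limma, Benjamini-Hochberg adjusted over all genes). The value given is the effect in Th1 cells minus the effect in Tfh cells, on the log2 scale, and no gene of this group had opposite signs. The effect was more positive in Th1 cells for Cxcl3 (1.03, adjusted p = 0.000379), Fgl2 (1.02, adjusted p = 0.00367), Klre1 (0.93, adjusted p = 0.00378), Gzma (0.75, adjusted p = 0.00499), Ahr (0.75, adjusted p = 0.00564) and Klrg1 (0.62, adjusted p = 0.0165). It was also more positive there for Ccr9 (0.61, adjusted p = 0.0063), Socs2 (0.60, adjusted p = 0.0338), a feedback inhibitor of cytokine signals that rose by 0.62 in Tfh and 1.21 in Th1 cells, Gzmb (0.55, adjusted p = 0.0138) and S1pr5 (0.50, adjusted p = 0.0305).

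The effect was smaller in Th1 cells for Il10 (-0.74, adjusted p = 0.00378), Ier3 (-0.58, adjusted p = 0.0141), an early-response gene with 0.66 in Tfh and 0.08 in Th1 cells, Sostdc1 (-0.55, adjusted p = 0.0118) and Ifitm1 (-0.47, adjusted p = 0.0377). Igfbp4 (-0.58, adjusted p = 0.0257) and Satb1 (-0.50, adjusted p = 0.0264) fell by more in Th1 cells. With signals under the array median raised to it, an alternative chosen after the data were seen, the differences of Klre1 (0.43, adjusted p = 0.0981), S1pr5 (0.19, adjusted p = 0.24), Socs2 (0.60, adjusted p = 0.0694) and Ifitm1 (-0.47, adjusted p = 0.0572) did not pass and the other 12 did. Klre1 and Ccr9 were below the median on all 4 WT arrays and S1pr5 on 3, so the sizes of their effects and differences are not well bounded. The same holds for Cxcl3 and Fgl2, whose values also changed at that step. Cxcl3 then gave -0.01 in Tfh and 0.35 in Th1 cells, with a difference of 0.36, and Fgl2 gave 0.28 and 1.46. Groups of 2 arrays are too small for a check of single deviating arrays within a group.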

How the results depend on the processing

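Of the 188 named genes that passed, 134 kept their direction and their call under each of the alternatives run, over which the named called genes had 3929 values. Of these, 3608 kept the call, 320 kept the direction without the call, and 1 changed direction: Pfkl was 0.00105 with the mean of its probe sets. Genes that lost the call most often were Pdp1, Gzmk, Itgae, Tk1, Bcl11b, Il2ra, Hmgcs1, Cdh6, Ier3, Ifnar1 and Lef1. The falls in the block fit numbered 537 after quantile normalization, 969 after median centring, 557 with array weights and 441 with 1 mean per group. The shared falls numbered 396 after quantile normalization, 758 after median centring, 308 with array weights and 121 with a size ratio of 0.67. Requiring the 95% interval of the difference to lie within 0.5 times the mean effect left 79 shared genes, 74 rises and 5 falls. Without a filter on low values, 565 genes were called in Tfh cells alone, 501 of them with the same sign in Th1 cells, and 766 in Th1 cells alone, 665 with the same sign in Tfh cells. Leaving out each array in turn gave 819 to 1736 called genes, 707 to 1260 rises and 112 to 476 falls. It gave 678 to 1335 shared genes, 599 to 977 shared rises and 79 to 358 shared falls, and 27 to 1614 genes with a difference between lineages. The cause of these changes was not tested.

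The replicate numbers showed no common pairing across all groups, and a pairing of the genotypes within each lineage was not fitted. The difference of replicate 1 minus replicate 2 correlated across genes by 0.28 between Rictor-null and WT Tfh cells and by 0.17 between Rictor-null and WT Th1 cells, but by -0.28 between Rictor-null Tfh and Rictor-null Th1 cells, -0.51 between Rictor-null Tfh and WT Th1 cells, -0.23 between WT Tfh and WT Th1 cells and 0.0032 for the remaining pair. With the replicate number as a block, 1088 genes passed, 918 rises and 170 falls, 879 genes were shared (746 rises and 133 falls), and 91 differed between lineages.

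With 4 arrays per genotype, 2 per lineage and no detection calls, effects near 0.25 log2 were recovered incompletely in simulation, and genes near the array median have compressed folds because of the pseudocount. Cells of other types, sort purity and handling were not measured apart from the markers given. The scaling between arrays fixes the balance of small rises and falls, so counts of small effects are less firm than the large shared effects. Whether the effects arose in the memory cells themselves or earlier in the mice cannot be told apart with this design.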
